A study of Mus musculus with 4 samples.

Results

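The 5 kainate receptor subunit genes, Grik1 to Grik5, and the genes of their 2 auxiliary proteins, Neto1 and Neto2, make up 7 of the 43348 genes in the count tables and were chosen by gene symbol. Their messenger RNA was counted as unique molecular identifiers (UMIs, each standing for 1 captured molecule) in single cells sorted for TdTomato from slices of mouse frontal cortex and hippocampus. Both genotypes carried Nkx2-1Cre and the Ai14 reporter, so TdTomato is meant to mark cells with a history of Nkx2-1 promoter activity. These include interneurons of the medial ganglionic eminence as well as glia, and the sort was not designed to sample cells outside that lineage. The paper also recovered a minor share of glutamatergic neurons, astrocytes and microglia. Whether those cells, or the choroid plexus-like and endothelial-like cells described below, belong to the lineage was not tested. WT mice were Nkx2-1Cre:Grin1wt/wt, and null mice were Nkx2-1Cre with Grin1 floxed on both alleles, which removes the obligatory NMDA receptor subunit from Cre-expressing cells only. Mice of both genotypes were juveniles of postnatal day 18 to 20, male and female littermates. Each region gave 3 WT and 2 null libraries, 10 in all, and the 10x Genomics kit was version 2 for replicate 1 and version 3 for the other replicates.

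The WT cortex libraries held 9306756, 14212183 and 28057207 UMIs in replicates 1, 2 and 3, and the cortex null libraries held 1488601 and 25688337 in replicates 1 and 2. In hippocampus the WT libraries held 10555408, 8782181 and 20639002 UMIs, and the null libraries 3856745 and 47338167. The median UMIs per cell, in the same order, were 7098, 2903 and 6519 in WT cortex, 6641 and 8224.5 in null cortex, 4411, 1479 and 5741 in WT hippocampus, and 8839 and 9508 in null hippocampus. Of the cells in the files, 26201 of 26987 were kept. Null libraries 1 of both regions held the fewest UMIs, and WT replicate 2 of both regions had the lowest medians per cell.

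Kainate receptors are tetrameric cation channels opened by glutamate. Subunits encoded by Grik1, Grik2 and Grik3 bind kainate with lower affinity and can form channels by themselves, whereas the high-affinity subunits of Grik4 and Grik5 reach the membrane as channels only together with them. Neto1 and Neto2 are single-pass membrane proteins with CUB domains that bind the receptor, slow its gating and affect its traffic, and in interneurons kainate receptors of axon and dendrite are known for tuning excitability and GABA release.

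In the annotation of the mouse genome (GENCODE vM21, GRCm38), Grik1 lies at chr16:87895900-88290265, Grik2 at chr10:49094833-49788766, Grik4 at chr9:42518135-42944493, Grik5 at chr7:25009849-25072346 and Neto2 at chr8:85636588-85700924, all on the minus strand. Grik3 lies at chr4:125490700-125714173 and Neto1 at chr18:86394952-86506718, both on the plus strand. Their identifiers in the files are ENSMUSG00000022935.10, ENSMUSG00000056073.10 and ENSMUSG00000001985.9 for Grik1 to Grik3, ENSMUSG00000032017.10 and ENSMUSG00000003378.8 for Grik4 and Grik5, and ENSMUSG00000050321.2 and ENSMUSG00000036902.9 for Neto1 and Neto2. The authors extended gene ends by 4 kb before counting.

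Grin1 separated the genotypes in every library. In SST-like interneurons (named by markers as described next), its level in CPM (UMIs of the gene per 1000000 UMIs of that class in that library) was 153, 256 and 233 in WT cortex, 37.1 and 28.3 in null cortex, 121, 177 and 157 in WT hippocampus, and 21.3 and 21.5 in null hippocampus. All null values lay below all WT values, here and in PVALB-like cells, where the WT range was 102 to 212 CPM and the highest null value 41.4 CPM. The fitted null minus WT log2 change of Grin1 was -2.71 ± 0.328 (SE) in cortex SST, -2.82 ± 0.331 in hippocampus SST, -2.55 ± 0.405 in cortex PVALB, -2.82 ± 0.410 in hippocampus PVALB and -2.39 ± 0.428 in hippocampus neurogliaform-like cells. The adjusted p of Grin1 in edgeR, with the same order, was 0.0342, 0.0251, 0.0244, 0.0639 and 0.925, none under the 0.01 used for calls. Where the 3′ tags lie relative to the deleted part of Grin1 was not examined.

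Of the 45 pairs of libraries, 22 shared any cell barcode, at most 12 barcodes and never more than 0.552% of the smaller library. Libraries that stand apart are WT replicate 2 in both regions, with the lowest median depth of its group, and replicate 1 of the cortex null group, whose 177 kept cells gave too few neurogliaform-like cells for a sum. Hippocampus WT replicate 2 also supplied most cells of clusters 1 (88.8%), 14 (93.2%), 16 (84.8%), 24 (84.0%) and 28 (95.9%), and 56.0% of cluster 10.

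Cells were grouped into 34 clusters with the 7 members left out of the clustering genes, so that no member helped define the class it is compared over. Each cluster took the class with the most marker genes among its top 10 genes, then with the most markers detected at 20 CPM or more, at least 3. Classes were SST-like (clusters 5, 6, 8, 10, 21 and 25, with the TH-like cluster 12 counted among them), PVALB-like (2, 23 and 31), neurogliaform-like (NGFC; 3 and 16), glutamatergic-like (15 and 18), oligodendrocyte precursor-like (OPC; 7, 11, 14, 27 and 28) and oligodendrocyte-like (0, 1, 4, 9, 13, 17, 24 and 26), and 1 cluster each resembled astrocytes, microglia, choroid plexus and endothelium. SST clusters 10 and 25, OPC clusters 14 and 27 and oligodendrocyte clusters 0, 1, 13, 17, 24 and 26 had 0 markers of their class in their top 10 genes and were named from 4 to 8 markers detected. Cluster 10 had a median of 1143 UMIs per cell, with Mir6236 and Lars2 among its top genes. In WT sums, Sst averaged 12706 ± 2340 CPM (SD, n = 6 libraries) in SST against 1186 ± 1326 in PVALB, Pvalb 1286 ± 678 CPM in PVALB against 108 ± 55.2 in SST, Lamp5 445 ± 117 CPM in NGFC against 9.76 ± 10.6 in PVALB, and Pdgfra 387 ± 140 CPM in OPC against 2.32 ± 3.24 in oligodendrocytes. Clusters 19, 22 and 33, 1006 cells, stayed unnamed. Clusters 19 and 33 had few UMIs and no marker in their top 10 genes, and cluster 22 had Oxt among its top genes, a rule chosen after seeing it; cluster 22 made up 1.95% of WT cortex cells, 2.72% of null cortex cells, 0.944% of WT hippocampus cells and 1.30% of null hippocampus cells.

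Among WT interneurons, Grik3 and Neto1 set the SST class as a whole apart from both other classes. Grik3 was 4.55-fold lower in PVALB than in SST and 36.3-fold lower in NGFC, and Neto1 was 3.90-fold lower in PVALB and 3.62-fold lower in NGFC. Both differences held within each of the 6 WT libraries. They did not hold for every cluster of the SST class. The TH cluster 12 was low in Grik3, and Neto1 in clusters 12 and 21 (Chodl) was near its PVALB and NGFC levels, as given below. Grik1 was 1.49-fold and Neto2 1.89-fold lower in NGFC than in SST, calls lost in 4 and 2 of 23 alternatives. Grik1 was also called 1.32-fold lower in PVALB than in SST, and this call was lost in 14 of 24 alternatives, DESeq2 among them. Grik2 and Grik5 passed the test in none of the 3 class comparisons in edgeR (in DESeq2 likewise in none). Grik4 was left out by the edgeR filter on low counts, and DESeq2, which tested it, did not call it (adjusted p 0.0341 for PVALB minus SST, 0.370 for NGFC minus SST and 0.533 for NGFC minus PVALB).

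A gene was called when its edgeR p adjusted over all genes was under 0.01 and its natural-log change at least 0.1. For PVALB minus SST, 3 of the 6 members tested were called, all lower, beside 22.5% of all genes tested; 5 had an unadjusted p under 0.05 and DESeq2 called 2. For NGFC minus SST, 4 of 6 were called, all lower, beside 23.9% of all genes, with 6 at an unadjusted p under 0.05 and 4 by DESeq2. For NGFC minus PVALB, 1 of 6 was called, lower, beside 23.4% of all genes, with 2 at an unadjusted p under 0.05 and 1 by DESeq2. The median log2 change of the members tested was -0.40, -0.75 and -0.11 in these comparisons, in the order given, and that of all genes was -0.01, 0.00499 and 0.02. The 3 comparisons share their libraries and each class enters 2 of them.

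**Figure D1:**
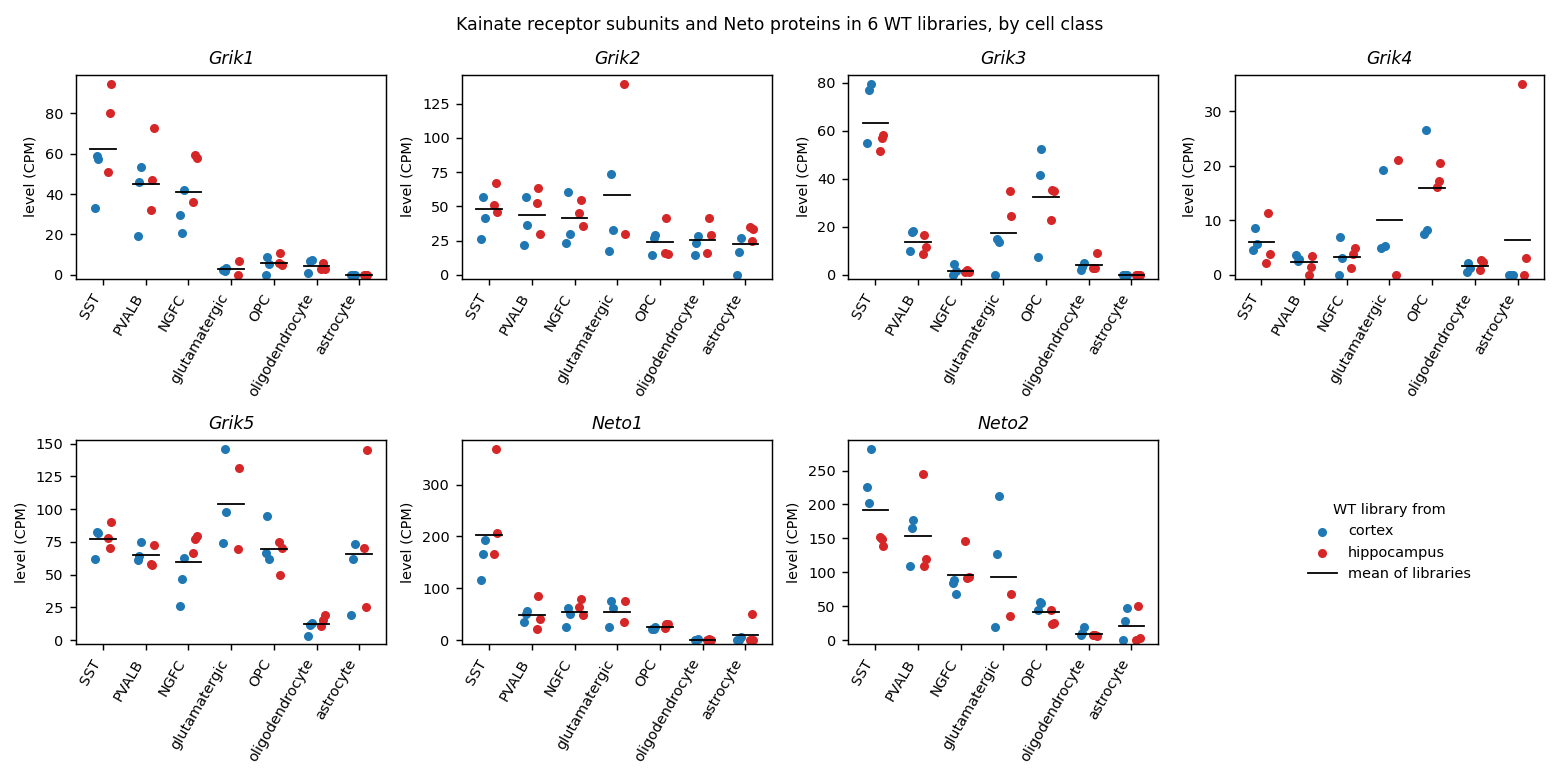
Level of each member (CPM, linear axis) in the 6 WT libraries by cell class, each point 1 library, coloured by region, with the mean as a line. Neto1 in SST runs from 116 to 368 CPM, above every library of every other class drawn, and Grik3 is at 0 to 4.65 CPM in NGFC.

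Grik3, a low-affinity subunit gene, had WT SST levels of 51.8 CPM at the lowest, 57.6 at the median and 79.4 at the highest of 6 libraries. In PVALB the corresponding values were 8.76, 14.1 and 18.0 CPM, and in NGFC 0, 1.43 and 4.65 CPM. The 3 ranges did not overlap. The NGFC values rest on 0 to 4 Grik3 UMIs per library, 10 of 1336 NGFC cells in all. The log2 change was -2.19 ± 0.107 for PVALB minus SST (adjusted p 6.12e-12), -5.18 ± 0.203 for NGFC minus SST (adjusted p 1.92e-13) and -3.00 ± 0.282 for NGFC minus PVALB (adjusted p 6.55e-08), each lower in 6 of 6 libraries. With NGFC so near 0 its fitted folds depend on the prior count.

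Across all WT classes the mean Grik3 level fell into the order SST (63.1 ± 12.0 CPM, SD), OPC (32.4 ± 15.5), glutamatergic (17.6 ± 13.0, n = 5), PVALB (13.8 ± 4.19), oligodendrocyte (4.19 ± 2.63), microglia (2.19 ± 4.39, n = 4) and NGFC (1.78 ± 1.55), with no Grik3 UMI in astrocytes (n = 6), choroid plexus (n = 3) or the endothelial sum (n = 1). Every pair of neighbours in that order overlapped, SST and OPC only at their edges, 51.8 CPM against 52.3. SST clusters 5 and 6 each had a pooled Grik3 level of 100 CPM, cluster 25 had 77.0, cluster 10 had 72.0 and cluster 8 had 52.9, whereas the Chodl cluster 21 had 31.1 and the TH cluster 12 had 3.18 CPM (95% Poisson interval 1.59 to 5.69). PVALB cluster 2 had 18.9 CPM, while the Pthlh cluster 23 had no Grik3 UMI in 220 WT cells, which allows up to 2.72 CPM. The order of SST clusters depends on the pooling, since the mean over libraries was 98.1 CPM in cluster 10 (n = 4), 91.0 in cluster 6 (n = 5), 85.8 in cluster 5 (n = 6) and 80.6 in cluster 25 (n = 2).

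Grik1, the other low-affinity subunit gene that passed a test, had WT SST levels of 32.9 CPM at the lowest, 57.9 at the median and 94.5 at the highest. In PVALB it ran from 19.3 over 46.4 to 72.7 CPM and in NGFC from 20.9 over 39.0 to 59.2 CPM. The ranges overlapped widely, although within each library SST was above both PVALB and NGFC in 6 of 6. The log2 change was -0.40 ± 0.111 for PVALB minus SST (adjusted p 0.00874, DESeq2 0.0139) and -0.57 ± 0.128 for NGFC minus SST (adjusted p 0.00136); NGFC minus PVALB was -0.18 (adjusted p 0.382). The PVALB minus SST call of Grik1 was lost in 14 of 24 alternatives, among them leaving out any 1 WT library other than cortex replicate 3, with adjusted p 0.0192 to 0.0393, and leaving out the Pthlh clusters of PVALB, where the change was -0.16 (adjusted p 0.315; range over all alternatives 0.00134 to 0.481). The NGFC minus SST call of Grik1 was lost without hippocampus replicate 3 (-0.52, adjusted p 0.0246), in cortex libraries alone (-0.74, adjusted p 0.0195), without the library term (adjusted p 0.332) and without replicate 2 of both regions (adjusted p 0.0109).

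By class, mean Grik1 fell into the order SST (62.3 ± 21.9 CPM), PVALB (45.0 ± 18.3), NGFC (40.9 ± 15.4), microglia (15.9 ± 26.3, n = 4), OPC (6.02 ± 3.74), oligodendrocyte (4.45 ± 2.51) and glutamatergic (2.88 ± 2.60, n = 5). No Grik1 UMI was counted in 308 WT astrocytes, and all neighbours in the order overlapped. Of all 209 WT microglia, 3 had a Grik1 UMI, and their median over libraries was 4.39 CPM, beside 5.63 CPM in OPC. For Grik2, Grik3, Grik5, Neto1 and Neto2, 1 to 4 of these microglia had a UMI, so microglia levels are near the floor throughout. Among interneuron clusters Grik1 was highest in the TH cluster 12, with 97.1 CPM pooled over WT cells, and in SST clusters 8 (83.0) and 10 (79.5). The Pthlh clusters 23 and 31 stood lowest with 7.36 and 9.23 CPM, beside 55.5 CPM in PVALB cluster 2. In SST cluster 25 the level was 26.9 CPM, and in the NGFC clusters 3 and 16 it was 48.5 and 55.8 CPM.

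Grik2, the third low-affinity subunit gene, was present in all 3 interneuron classes at overlapping levels, 26.4 to 67.0 CPM in SST, 22.0 to 63.8 in PVALB and 22.9 to 60.5 in NGFC. Its log2 changes between classes lay between -0.23 and -0.05 with adjusted p from 0.0866 to 0.793. Mean Grik2 was 58.5 ± 49.9 CPM in glutamatergic cells (n = 5), 48.1 ± 13.8 in SST, 43.6 ± 16.5 in PVALB, 41.3 ± 14.6 in NGFC, 25.5 ± 9.96 in oligodendrocytes, 23.8 ± 10.6 in OPC, 22.8 ± 12.9 in astrocytes and 6.58 ± 13.2 in microglia (n = 4), with overlap between all neighbours. The first place of glutamatergic cells holds for the mean only. Their median was 32.4 CPM and their highest library 139 CPM, beside a median of 48.6 CPM in SST. The glutamatergic sum of hippocampus WT replicate 2 held 26 cells and 28709 UMIs.

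Of the high-affinity subunit genes, Grik5 had overlapping levels in the 3 interneuron classes and Grik4 had low ones. Grik5 ranged from 61.5 to 90.4 CPM in SST, from 57.7 to 74.5 in PVALB and from 26.1 to 79.5 in NGFC, with log2 changes of -0.24, -0.26 and -0.02 for PVALB minus SST, NGFC minus SST and NGFC minus PVALB (adjusted p 0.110, 0.113 and 0.938). Mean Grik5 ran from 104 ± 33.9 CPM in glutamatergic cells (n = 5) over 77.4 ± 10.1 in SST, 69.7 ± 14.9 in OPC, 65.8 ± 45.3 in astrocytes, 64.9 ± 7.23 in PVALB and 59.7 ± 20.2 in NGFC to 26.5 in the endothelial sum (n = 1), 26.3 ± 23.8 in choroid plexus (n = 3), 12.0 ± 5.25 in oligodendrocytes and 8.78 ± 17.6 in microglia (n = 4). All neighbours in that order overlapped. Grik4 stayed at 2.11 to 11.4 CPM in SST, 0 to 3.67 in PVALB and 0 to 6.98 in NGFC, and its mean was higher in OPC (16.0 ± 7.33 CPM) than in any other class, overlapping with glutamatergic cells (10.1 ± 9.45, n = 5). In the Chodl cluster 21, however, the pooled Grik4 level was 26.9 CPM (95% Poisson interval 21.3 to 33.6), beside 1.45 to 6.89 CPM in the other SST clusters and 3.76 in the TH cluster. Grik4 was called lower in PVALB than in SST without the filter on low counts (log2 change -1.25, adjusted p 0.000352), in replicates 2 and 3 alone (-1.29, adjusted p 0.00850) and in cortex libraries alone (-1.16, adjusted p 0.00442). In cortex libraries alone Grik5 was also called lower in NGFC than in SST (-0.71, adjusted p 0.00391).

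Neto1, the auxiliary protein gene most different between classes, had WT SST levels of 116 CPM at the lowest, 180 at the median and 368 at the highest. In PVALB the values were 20.4, 45.2 and 85.0 CPM and in NGFC 26.1, 56.4 and 79.9 CPM. The lowest SST library lay above the highest library of every other class, and PVALB and NGFC overlapped with each other. The log2 change of Neto1 was -1.96 ± 0.119 for PVALB minus SST (adjusted p 1.20e-10) and -1.86 ± 0.128 for NGFC minus SST (adjusted p 4.55e-10), each lower in 6 of 6 libraries, and 0.11 for NGFC minus PVALB (adjusted p 0.645), where 3 libraries were higher and 3 lower.

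Mean Neto1 in all WT classes took the order SST (203 ± 86.7 CPM), NGFC (55.1 ± 18.3), glutamatergic (54.6 ± 23.7, n = 5), PVALB (47.9 ± 21.9), OPC (25.9 ± 4.47), endothelial (13.3, n = 1), astrocyte (9.40 ± 19.9), microglia (4.39 ± 8.78, n = 4) and oligodendrocyte (0.916 ± 0.617), and no UMI was found in choroid plexus (n = 3). SST and NGFC did not overlap. OPC and the endothelial sum did not overlap either, but only 1 of 50 WT endothelial cells had a Neto1 UMI. Oligodendrocyte, with a lowest library of 0.135 CPM, and choroid plexus were also apart, both at the floor. The other neighbours overlapped. By cluster, pooled Neto1 was at 263 CPM in SST cluster 10, 261 in cluster 5, 207 in cluster 8, 197 in cluster 6 and 114 in cluster 25, and the mean over libraries was 223, 264, 183, 227 and 145 CPM. Cluster 10 came mostly from the library with the highest SST level of Neto1, and 66.5% of cluster 25 from the library with the lowest. The Chodl cluster 21 (51.8 CPM) and the TH cluster 12 (76.6 CPM) were near PVALB cluster 2 (56.9 CPM) and NGFC clusters 3 and 16 (50.4 and 75.2 CPM) instead, and the Pthlh cluster 23 had 10.3 CPM.

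Neto2, the other auxiliary protein gene, had WT SST levels of 139 CPM at the lowest, 177 at the median and 281 at the highest, PVALB levels of 109, 142 and 245 CPM, and NGFC levels of 67.2, 90.2 and 146 CPM. SST and PVALB overlapped widely and SST and NGFC only from 139 to 146 CPM. NGFC minus SST was -0.92 ± 0.187 on the log2 scale (adjusted p 0.000579, lower in 6 of 6 libraries), PVALB minus SST was -0.40 ± 0.168 (adjusted p 0.0788, lower in 5 of 6) and NGFC minus PVALB was -0.52 ± 0.202 (adjusted p 0.0509, lower in 6 of 6). In cortex libraries alone the NGFC minus SST change of Neto2 was -1.69 (adjusted p 7.98e-09) and in hippocampus libraries alone it was -0.41 (adjusted p 0.0745, not called); the difference between regions was not tested. Without replicate 2 of both regions that change was -0.93 (adjusted p 0.0119). For PVALB minus SST, Neto2 was called in cortex libraries alone (-0.64, adjusted p 3.8e-06), without the filter on low counts (-0.46, adjusted p 0.000119) and without hippocampus WT replicate 1 (-0.54, adjusted p 0.00560), the library with the highest PVALB level of 245 CPM. For NGFC minus PVALB, Neto2 was called in cortex libraries alone (-1.05, adjusted p 5.2e-05) and without the filter on low counts (-0.56, adjusted p 6.5e-05).

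Neto2 split the SST clusters into 2 sets. Clusters 5, 6, 8, 10 and 25 had pooled WT levels of 237, 324, 284, 171 and 261 CPM, whereas the Chodl cluster 21 had 15.2 CPM (95% Poisson interval 11.0 to 20.4) and the TH cluster 12 had 31.5 CPM. PVALB clusters 2 and 23 had 161 and 200 CPM, cluster 31 had 58.5, and NGFC clusters 3 and 16 had 97.5 and 92.1 CPM. By class, mean Neto2 was ordered SST (191 ± 55.6 CPM), PVALB (154 ± 53.1), NGFC (95.4 ± 26.6), glutamatergic (92.7 ± 78.9, n = 5), OPC (41.5 ± 14.0), astrocyte (21.3 ± 23.4), oligodendrocyte (9.45 ± 4.88) and microglia (9.06 ± 12.9, n = 4), with overlap between all neighbours. Intervals of pooled clusters cover counting error alone, and a cluster's cells come unequally from the libraries.

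**Figure D2:**
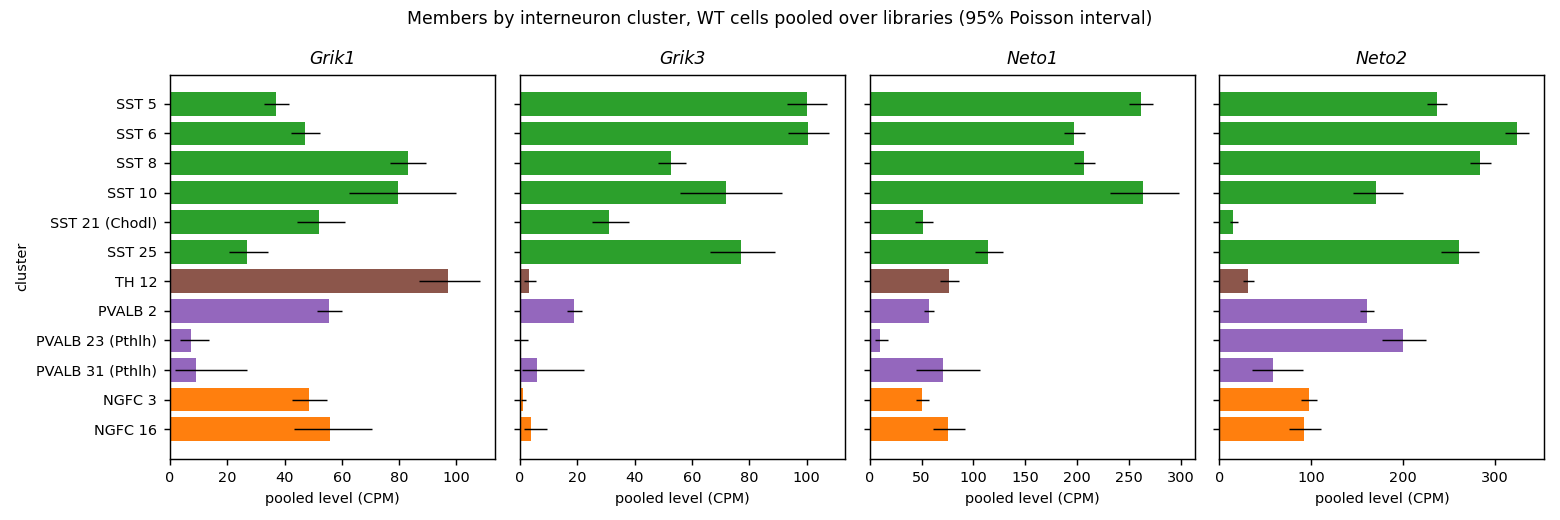
Pooled level (CPM) of Grik1, Grik3, Neto1 and Neto2 in WT cells of each interneuron cluster, bars coloured by class, whiskers the 95% Poisson interval. Grik1 is low in the Pthlh cluster 23 (7.36 CPM), Grik3 is near 0 in NGFC and TH clusters, and Neto2 is low in the Chodl (15.2 CPM) and TH (31.5 CPM) clusters.

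In the null libraries PVALB was below SST for Grik1, Grik3, Grik4 and Neto1 in 4 of 4. In all 3 null libraries with enough NGFC cells, NGFC was below SST for Grik1, Grik3, Grik4, Neto1 and Neto2 and below PVALB for Grik3, Grik4 and Neto2. Neto2 was higher in PVALB than in SST in 3 of 4 null libraries, and Grik1 was higher in NGFC than in PVALB in 3 of 3. Null SST levels of Neto1 were 159 and 143 CPM in cortex and 161 and 219 CPM in hippocampus, all above the highest null PVALB value of 53.8 CPM. No test was made within the null libraries.

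Neto1 was seen, with at least 1 UMI, in 58.3% of 4749 WT SST cells (median 6412 UMIs), 26.6% of 1765 PVALB cells (median 6279) and 21.5% of 1336 NGFC cells (median 3450), and in 0.322% of 5905 oligodendrocytes (median 3489), taken as the background class for Neto1. With each cell thinned to 1000 UMIs these shares of Neto1 were 17.6%, 5.05%, 5.99% and 0.0761%. Grik3 was seen in 32.6% of SST, 10.1% of PVALB and 0.749% of NGFC cells, beside 1.83% of oligodendrocytes, and after thinning in 7.33%, 2.06%, 0.169% and 0.476%. Oligodendrocyte clusters 13 and 24 had Grik3 at 31.9 and 20.9 CPM, so that class gives no background for Grik3. No Grik3 UMI was seen in 308 astrocytes (median 2146 UMIs), which at that depth allows up to 1.23% of cells with a UMI and does not bound the share that holds the transcript. Neto2 was seen in 55.9% of SST, 51.3% of PVALB, 30.8% of NGFC and 3.39% of oligodendrocyte cells (18.4%, 14.2%, 9.61% and 0.819% thinned). Grik1 shares were 28.7%, 27.0%, 19.0% and 1.73% in that order (5.90%, 4.99%, 5.82% and 0.457% thinned), and 0 of the same 308 astrocytes had a Grik1 UMI, with the same bound (Wilson).

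Thinned shares of Grik2 were 4.81% in SST, 4.52% in PVALB, 4.47% in NGFC and 2.21% in oligodendrocytes, from 24.4%, 23.4%, 15.9% and 9.60% of cells at full depth. Grik5 was seen in 38.9%, 35.2%, 26.3% and 5.32% of cells (7.38%, 6.23%, 6.49% and 1.28% thinned), and Grik4 in 3.66%, 1.76%, 1.72% and 0.728% (0.626%, 0.353%, 0.506% and 0.133% thinned). Cells under 1000 UMIs were left out of the thinned shares, 277 SST, 63 PVALB, 150 NGFC and 652 oligodendrocyte cells.

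Genes with the most similar pattern were sought over the 18 WT sums of SST, PVALB and NGFC by Pearson correlation of log2(CPM + 1), a description without a test, since sums of 1 library share cells of the same mice and depth. Closest to Grik3 were Satb1, a chromatin organiser (r = 0.962), Crhbp, which binds corticotropin-releasing hormone (r = 0.961), and Trhde, which degrades thyrotropin-releasing hormone (r = 0.960). Closest to Neto1 were Lmo4, a LIM-domain transcription cofactor (r = 0.922), and Serpine2, a protease inhibitor (r = 0.917); Crhbp is also an SST marker of the naming list. For Neto2 they were Calb1, a calcium buffer (r = 0.899), Camk2n1, an inhibitor of calcium/calmodulin kinase (r = 0.852), and the amino acid transporter gene Slc6a15 (r = 0.841), and for Grik1 the potassium-chloride cotransporter gene Slc12a5 (r = 0.880), the adhesion gene L1cam (r = 0.853) and the lysosomal ATPase gene Atp13a2 (r = 0.832).

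Around the members stand genes whose products edit, scaffold, transport or modify kainate receptors, a list of 22. For PVALB minus SST, 2 of the 20 tested were higher and 5 lower, among them the kinase gene Prkca (log2 change 1.44) and the N-cadherin gene Cdh2 (-0.69). For NGFC minus SST, 2 were higher and 2 lower, among them Prkca (2.39) and the neurexin gene Nrxn3 (-0.90), and for NGFC minus PVALB 4 were higher, led by Cdh2 (0.95), Prkca (0.94) and the scaffold gene Cask (0.61). Of the 13 other ionotropic glutamate receptor genes, 11 were tested, with 2 higher and 5 lower for PVALB minus SST (among them Grin3a -4.47 and Grin2a -1.32), 2 higher and 5 lower for NGFC minus SST (among them Grin3a -2.42 and Gria3 -2.09) and 2 higher and 3 lower for NGFC minus PVALB (Grin2a 3.28, Grin3a 2.05, Gria3 -1.95). Grin3a is an SST marker of the naming list as well. The median log2 changes were -0.11, 0.01 and 0.07 for the partner list and -0.13, -0.39 and -0.08 for the receptor list, beside the all-gene medians given above. In all, 7, 4 and 4 of the 20 partner genes and 7, 7 and 5 of the 11 receptor genes were called, beside 22.5%, 23.9% and 23.4% of all genes tested.

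In the oligodendrocyte lineage of WT mice, 5 members were higher in precursors than in oligodendrocytes. Neto1 was 23.0-fold higher in OPC, Grik4 6.88-fold, Grik3 5.28-fold, Grik5 3.78-fold and Neto2 3.07-fold, each in 6 of 6 libraries. Grik2 was called 1.60-fold lower in OPC, although its CPM was higher in OPC in 4 of 6 libraries and the call was lost with library-size scaling and in DESeq2. Grik1 passed no test. With 6 of 7 members called (6 at an unadjusted p under 0.05, 5 by DESeq2), beside 51% of all genes tested, the classes differ in a large share of all genes. The median log2 change was 1.92 over the members and -0.04 over all genes.

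Neto1 had WT OPC levels of 20.7 CPM at the lowest, 25.2 at the median and 31.8 at the highest, and oligodendrocyte levels of 0.135, 0.902 and 1.87 CPM, on 1 to 7 UMIs per library. The log2 change was 4.53 ± 0.359 (adjusted p 1.41e-09). Grik3 ran from 7.40 over 35.0 to 52.3 CPM in OPC and from 2.08 over 2.99 to 9.19 CPM in oligodendrocytes, and its lowest OPC value, in cortex replicate 1, rests on 1 UMI in 64 cells. The ranges of Neto1 did not overlap and those of Grik3 did, between 7.40 and 9.19 CPM. The log2 change of Grik3 was 2.40 ± 0.255 (adjusted p 9.74e-08).

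Grik4 ranged from 7.40 to 26.7 CPM in OPC and from 0.521 to 2.67 CPM in oligodendrocytes (log2 change 2.78 ± 0.291, adjusted p 7.89e-08). Grik5 ranged from 50.0 to 94.8 CPM against 3.12 to 18.8 CPM (1.92 ± 0.197, adjusted p 6.10e-08), and Neto2 from 24.2 to 56.3 against 5.81 to 18.8 CPM (1.62 ± 0.193, adjusted p 4.74e-07). None of these 3 pairs of ranges overlapped. Grik2 was at 14.8 to 41.4 CPM in OPC and 14.6 to 41.7 CPM in oligodendrocytes, with a fitted change of -0.68 ± 0.182 (adjusted p 0.00320). For Grik2, library-size scaling, which moves the median of all genes by 0.48, gave -0.21 (adjusted p 0.341), DESeq2 did not call it (adjusted p 0.0156), and without hippocampus replicate 3 it was -0.43 (adjusted p 0.0677). Grik1 was at 0 to 10.9 CPM in OPC and 1.04 to 7.20 CPM in oligodendrocytes (0.15, adjusted p 0.690).

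Several members differed between the precursor clusters, which was not tested. In WT cluster 11, with Pdgfra and Cspg4 among its top genes, Neto1 was at 59.0 CPM, Grik3 at 45.6, Grik4 at 23.9 and Neto2 at 57.5, whereas in cluster 7, with Gpr17 and Bcas1 among its top genes, the same genes were at 13.6, 31.1, 13.9 and 17.2 CPM. The cycling cluster 27, with Top2a and Mki67 among its top genes, had 40.0 CPM of Neto1, 31.0 of Grik3, 24.5 of Grik4 and 80.1 of Neto2. Cluster 14 had Neto1 at 20.0, Grik3 at 33.3, Grik4 at 14.4 and Neto2 at 11.1 CPM. It made up 28.5% of WT hippocampus precursors, and its top genes include Tcf7l2 and Itpr2, as do those of oligodendrocyte cluster 24. With cluster 14 left out, a choice made after seeing the data, the same 6 members were called, with log2 changes of 4.71 for Neto1, 2.87 for Grik4, 2.40 for Grik3, 1.97 for Grik5, 1.79 for Neto2 and -0.71 for Grik2. Among oligodendrocyte clusters Grik3 was highest in clusters 13 (31.9 CPM), 24 (20.9) and 26 (11.7), and it was at 0.328, 0.27 and 0 CPM in clusters 0, 9 and 1. Null libraries gave the same direction, with OPC above oligodendrocytes for Grik3, Grik4, Grik5, Neto1 and Neto2 in all 3 that held enough cells of both classes, as also for Grik1, and for Grik2 in 2 of 3.

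Detection went the same way for the 5 members higher in precursors, at unequal depths. Neto1 was seen in 6.23% of 2730 WT precursors (median 1857.5 UMIs) and 0.322% of 5905 oligodendrocytes, and in 2.90% and 0.0761% after thinning to 1000 UMIs, which left out 560 precursors. Thinned shares were 3.18% and 0.476% for Grik3, 1.47% and 0.133% for Grik4, 6.31% and 1.28% for Grik5, 3.78% and 0.819% for Neto2, 2.58% and 2.21% for Grik2, and 0.876% and 0.457% for Grik1. Grik2, called lower in precursors, and Grik1 thus had higher thinned shares there. At full depth both were seen in a smaller share of precursors, 4.84% against 9.60% for Grik2 and 1.43% against 1.73% for Grik1. Of the partner list, 9 of 18 genes tested were higher in OPC and 2 lower (Cask 2.74, the scaffold gene Dlg1 -1.84, Nrxn3 1.84; median 0.57), and of the other ionotropic receptor genes 7 of 8 were higher and none lower (Gria3 4.59, Grin3a 4.37, Grid1 3.59; median 2.48), beside 51% of all genes called. DESeq2 called 12 and 7 genes of these lists, where edgeR called 11 and 7.

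**Figure D3:**
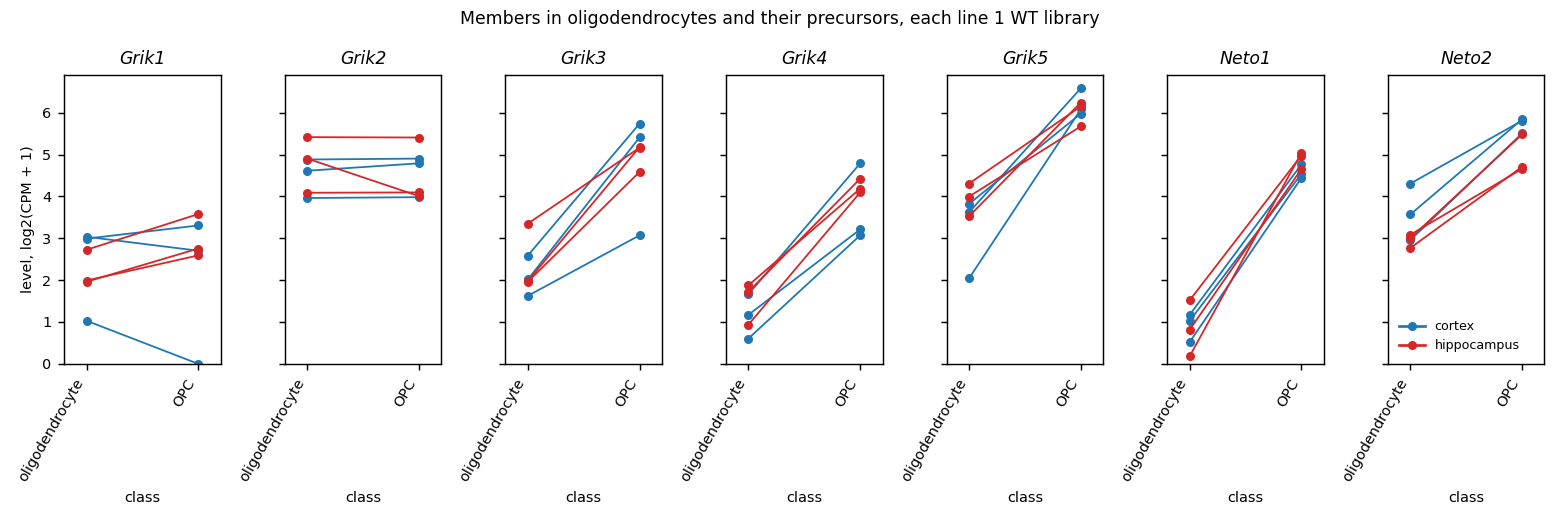
Level of each member as log2(CPM + 1) in oligodendrocytes and precursors, each line joining the sums of 1 WT library, coloured by region. Grik3, Grik4, Grik5, Neto1 and Neto2 are higher in precursors in 6 of 6 libraries, and the lines of Grik1 and Grik2 go both ways.

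Promoters of the members higher in precursors are shown because these genes move together between the classes. Promoters of 300 bases, 250 before and 50 after the gene start, were taken from RefSeq (GRCm38.p6) for 5 of the 7 members. The 4 shown are those of the 5 that were called higher in OPC. No promoter of Grik1 or Neto1 was examined, although Neto1 was also called higher in OPC. Their absence here does not show that RefSeq lacks an entry for them. Capitals mark GGGCGG on either strand, the GC box bound by Sp1-type factors, which was searched after 2 motifs of factors of the lineage, CAGCTG (an E-box of basic helix-loop-helix factors) and ACAAAG (a core of Sox factors), had no match in them on either strand. The promoters are at chr4:125490446-125490745 (plus strand) for Grik3, chr9:42944322-42944621 (minus) for Grik4, chr7:25072320-25072619 (minus) for Grik5 and chr8:85700875-85701174 (minus) for Neto2, the entry of 2 that holds the annotated start, each written 5′ to 3′.
Grik3: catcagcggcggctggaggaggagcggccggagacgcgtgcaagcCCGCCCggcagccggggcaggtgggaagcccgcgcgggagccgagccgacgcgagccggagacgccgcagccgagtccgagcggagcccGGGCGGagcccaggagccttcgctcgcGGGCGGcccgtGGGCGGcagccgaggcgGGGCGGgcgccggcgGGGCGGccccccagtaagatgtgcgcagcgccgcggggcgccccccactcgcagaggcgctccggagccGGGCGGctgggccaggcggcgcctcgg
Grik4: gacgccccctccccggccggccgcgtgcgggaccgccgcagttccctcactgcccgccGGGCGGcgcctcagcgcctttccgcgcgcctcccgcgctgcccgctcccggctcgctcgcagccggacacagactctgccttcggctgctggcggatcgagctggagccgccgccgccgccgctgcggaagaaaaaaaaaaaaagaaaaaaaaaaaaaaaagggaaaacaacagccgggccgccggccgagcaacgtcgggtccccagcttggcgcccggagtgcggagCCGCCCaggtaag
Grik5: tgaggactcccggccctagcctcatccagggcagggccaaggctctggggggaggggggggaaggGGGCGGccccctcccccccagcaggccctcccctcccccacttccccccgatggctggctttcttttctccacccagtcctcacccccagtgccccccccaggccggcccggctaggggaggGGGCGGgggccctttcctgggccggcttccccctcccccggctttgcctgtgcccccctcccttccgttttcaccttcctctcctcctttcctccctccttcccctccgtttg
Neto2: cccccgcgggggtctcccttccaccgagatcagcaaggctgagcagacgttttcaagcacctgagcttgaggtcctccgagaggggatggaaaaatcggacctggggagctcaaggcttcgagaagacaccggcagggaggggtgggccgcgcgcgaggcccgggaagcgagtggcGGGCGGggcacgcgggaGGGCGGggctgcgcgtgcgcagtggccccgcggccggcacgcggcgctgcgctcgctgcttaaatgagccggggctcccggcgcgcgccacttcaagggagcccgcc

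GGGCGG occurred 7 times in the Grik3 promoter and 2 times in each of the other 3. Of the 32851 RefSeq promoters of that length that were examined, 35.7% hold it. The promoter of Grik2, a member not higher in OPC, and the other Neto2 entry each had 0. CAGCTG is held by 16.3% and ACAAAG by 18.7% of all promoters. The GC content was 82.0% for Grik3, 70.0% for Grik4 and 72.0% for both Grik5 and Neto2, beside a median of 52.7% over all promoters. A match describes the sequence and does not show that a factor binds, and no chromatin data were available.

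Between regions, no member passed the test in WT interneurons. In SST cells, the member furthest from equal was Neto2, with 225, 203 and 281 CPM in cortex and 152, 148 and 139 CPM in hippocampus, and these ranges did not overlap. Neto1 showed 116, 166 and 193 CPM in cortex and 166, 368 and 206 CPM in hippocampus, overlapping as groups and higher in hippocampus within each replicate number. The fitted hippocampus minus cortex log2 change was -0.74 ± 0.230 for Neto2 (unadjusted p 0.0104 and adjusted p 0.345 in edgeR, adjusted p 0.0886 in DESeq2) and 0.60 ± 0.353 for Neto1 (adjusted p 0.901). With the replicate number as a block, since replicates of the same number resembled each other across regions, Neto2 was -0.73 with an adjusted p of 0.0333, still over 0.01.

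Counts of members called by edgeR were 0 of 7 in SST (0.0419% of all genes called; 1 member at an unadjusted p under 0.05, 0 by DESeq2), 0 of 6 in PVALB (0.0227% of all genes; 0 and 0) and 0 of 5 in NGFC (0% of all genes; 0 and 0). DESeq2 called 119, 28 and 3 genes in all in these comparisons. The median log2 change of the members was 0.03, 0.06 and 0.50, and of all genes 0.03, 0.02 and 0.02. Of the partner list and the other receptor genes, edgeR called 0 in each class, with 1, 2 and 1 partner genes and 3, 3 and 0 receptor genes at an unadjusted p under 0.05, and DESeq2 called 1 of each list in SST and 0 in PVALB and NGFC.

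Grik1 in SST was 32.9, 58.7 and 57.2 CPM in cortex and 50.7, 80.0 and 94.5 CPM in hippocampus, which overlap (log2 change 0.55, 95% interval -0.16 to 1.26, adjusted p 0.891). In NGFC, Grik1 was 29.4, 20.9 and 42.2 CPM in cortex and 35.9, 59.2 and 57.9 CPM in hippocampus (0.74), and Grik5 was 26.1, 46.5 and 62.6 CPM and 66.6, 77.0 and 79.5 CPM (0.72, 95% interval -0.06 to 1.51). Grik5 in NGFC did not overlap between regions, and its p adjusted over all genes was 0.999992. Grik3 in SST was 55.1, 77.1 and 79.4 CPM in cortex and 51.8, 57.1 and 58.1 CPM in hippocampus, overlapping at 55.1 to 58.1 (-0.39, adjusted p 0.901). Within each replicate number, hippocampus was higher for Grik1 in SST and NGFC and lower for Grik3 in SST. None of these was called with the replicate block. In PVALB the changes of the 6 members tested in edgeR lay between -0.33 and 0.36, and Grik4, tested by DESeq2 only, was at -0.59 (not called).

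Oligodendrocyte transcripts in the SST sums moved with region. All 8 markers of that list had UMIs in every SST sum, and their summed level was 742, 1480 and 605 CPM in WT cortex and 2446, 3548 and 1640 CPM in WT hippocampus. Their part in the values of the members was not tested. The makeup of SST differed as well, with cluster 10, mostly from hippocampus replicate 2, at 5.36% of WT cortex and 34.6% of WT hippocampus SST cells, and cluster 6, the highest for Neto2, at 28.6% and 15.1%. The Neto2-poor clusters 21 (Chodl) and 12 (TH) made up 6.77% and 10.5% in cortex and 1.61% and 7.22% in hippocampus. In NGFC, cluster 16 made up 5.76% of WT cortex and 53.0% of WT hippocampus cells. Hippocampus WT replicate 2 supplied 84.8% of cluster 16, so the difference in its share rests largely on that library.

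Between genotypes, no member passed the test in the 5 comparisons made, SST and PVALB in each region and NGFC in hippocampus. Cells over 30% mitochondrial UMIs, left out of all member levels, made up 9.90% and 5.97% of null replicate 2 of cortex and hippocampus, 1.66% and 0.743% of null replicate 1, and at most 0.127% of any WT library. The bearing of this on the member values was not tested. Neto1 in SST was 116, 166 and 193 CPM in WT and 159 and 143 CPM in null cortex, and 166, 368 and 206 CPM in WT and 161 and 219 CPM in null hippocampus. The groups overlapped in cortex and in hippocampus. The null minus WT log2 change of Neto1 was -0.05 ± 0.358 in cortex (95% interval -0.83 to 0.73) and -0.37 ± 0.360 in hippocampus (interval -1.16 to 0.41).

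For edgeR the counts of members called were 0 of 7 in cortex SST (0% of all genes called; 0 members at an unadjusted p under 0.05, 0 by DESeq2), 0 of 7 in hippocampus SST (0% of all genes; 0 and 0), 0 of 6 in cortex PVALB (0% of all genes; 1 and 0), 0 of 6 in hippocampus PVALB (0% of all genes; 1 and 0) and 0 of 5 in hippocampus NGFC (0% of all genes; 0 and 0). DESeq2 called 2, 2, 12, 1 and 1 genes in all. The test of whether the genotype change differs between regions also called 0 of 7 members in SST (0% of all genes; 0 members at an unadjusted p under 0.05, 0 by DESeq2) and 0 of 6 in PVALB (0% of all genes; 0 and 0), with the smallest unadjusted p for Grik3 in PVALB (difference 1.16, p 0.0962 in edgeR). Grin1 itself was not called by edgeR at these numbers of libraries.

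Median log2 changes of the members were -0.05 in cortex SST, -0.30 in hippocampus SST, -0.46 in cortex PVALB, -0.11 in hippocampus PVALB and -0.30 in hippocampus NGFC, beside all-gene medians of -0.00385, -0.04, -0.00490, -0.02 and -0.06. Of the partner list edgeR called 0 genes in each of the 5 comparisons, with 2, 2, 2, 0 and 0 at an unadjusted p under 0.05 and 0 by DESeq2. Of the other ionotropic receptor genes, Grin1 among them, edgeR called 0 in each, with 2, 2, 3, 2 and 2 at an unadjusted p under 0.05 and 1 by DESeq2 in each.

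Grik1 in PVALB cells was the only member and class with an unadjusted p under 0.05 among the genotype comparisons. It was 19.3, 45.7 and 53.3 CPM in WT cortex, 17.2 and 20.8 CPM in null cortex, 32.1, 47.1 and 72.7 CPM in WT hippocampus, and 30.1 and 21.9 CPM in null hippocampus. Null and WT overlapped in cortex, at replicate 1, and not in hippocampus. The log2 change of Grik1 was -1.04 ± 0.451 in cortex (95% interval -2.00 to -0.07, unadjusted p 0.0371, adjusted p 0.999973) and -1.11 ± 0.452 in hippocampus (interval -2.08 to -0.15, unadjusted p 0.0271, adjusted p 0.999915), with edgeR. Within replicate 1 null minus WT was -0.15 in cortex and -0.09 in hippocampus, and within replicate 2 it was -1.10 and -1.07.

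Beside Grik1, the pooled makeup of PVALB differed between genotypes in cortex, mostly through null replicate 2. Cluster 2, where Grik1 was 55.5 CPM in WT, held 89.2% of WT and 53.3% of null PVALB cells in cortex, and 69.6% and 66.2% in hippocampus. By cortex library it held 24 of 31 PVALB cells in null replicate 1 and 137 of 271 in null replicate 2. In WT replicates 1, 2 and 3 it held 115 of 140, 491 of 568 and 648 of 698. The Pthlh cluster 23, where Grik1 was 7.36 CPM, held 8.11% and 24.8% in cortex and 29.5% and 31.4% in hippocampus, and cluster 31, with Crabp1 and Pthlh, held 2.70% and 21.9% in cortex and 0.836% and 2.44% in hippocampus. Replicate 2 supplied most null cortex cells of both Pthlh clusters, and the higher null share of cluster 23 rests on that library. With both Pthlh clusters left out, a choice made after seeing the data, Grik1 in cortex was 22.7, 53.8 and 58.0 CPM in WT and 22.7 and 38.5 CPM in null libraries, and in hippocampus 49.4, 59.9 and 81.7 CPM in WT and 40.2 and 29.7 CPM in null libraries. The null minus WT change was then -0.45 in cortex, overlapping, and -0.99 in hippocampus, where both null values were below all 3 WT values. Neither passed the test (adjusted p 0.999854 and 0.977, edgeR).

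Oligodendrocyte transcripts were measured in the same PVALB sums. The summed level of their markers was 180.7, 1269 and 690 CPM in WT and 89.6 and 644 CPM in null cortex, and 1991, 3575 and 2686 CPM in WT and 1921 and 922 CPM in null hippocampus, so the lowest value in cortex and the 2 lowest in hippocampus were null. Of the 8 markers, 5 to 8 had UMIs in each sum, with Enpp6 absent from 2 WT sums and Enpp6, Mobp and Opalin from null cortex replicate 1. Their part in the Grik1 values was not tested.

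The other members gave genotype changes in both directions. In SST, the null minus WT log2 change in cortex and hippocampus was -0.30 and -0.30 for Grik1, -0.05 and -0.42 for Grik2, -0.44 and -0.18 for Grik3, 0.38 and 0.12 for Grik4, -0.01 and -0.28 for Grik5, and -0.40 and -0.30 for Neto2. In PVALB it was -0.72 and -0.37 for Grik2, -0.80 and 0.37 for Grik3, 0.03 and 0.03 for Grik5, -0.21 and -0.23 for Neto1, and 0.10 and 0.02 for Neto2. Grik4 in PVALB, left out by the edgeR filter, was at 0.68 and 1.08 in DESeq2 and not called, with 0, 1.52 and 3.46 CPM in WT and 4.30 and 4.29 CPM (2 and 19 UMIs) in null hippocampus. In hippocampus NGFC it was -0.16 for Grik1, -0.19 for Grik2, -0.30 for Grik5, -0.38 for Neto1 and -0.41 for Neto2, and in DESeq2 alone 0.61 for Grik3 and -0.90 for Grik4, not called. NGFC cluster 16 held 53.0% of these cells in WT and 4.35% in null hippocampus. Of all cluster 16 cells, 84.8% came from hippocampus WT replicate 2, so this contrast rests largely on 1 library. The part of cluster 16 in the member changes was not tested. In cortex NGFC, with 1 null library, values only can be given, 47.9 CPM of Neto1 beside 26.1, 62.8 and 50.0 in WT, and 47.0 CPM of Neto2 beside 84.9, 88.4 and 67.2.

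Neto2 in SST was 225, 203 and 281 CPM in WT and 234 and 124 CPM in null cortex, and 152, 148 and 139 CPM in WT and 97.5 and 138 CPM in null hippocampus. The groups overlapped in cortex, and in hippocampus both null values lay under the lowest WT value. Within replicates 1 and 2 the null minus WT change of Neto2 was 0.06 and -0.71 in cortex and -0.63 and -0.10 in hippocampus, and that of Neto1 in SST was 0.45 and -0.21 in cortex and -0.05 and -0.74 in hippocampus. With cells pooled over libraries, the Neto2-poor clusters took larger shares of cortex SST in null than in WT. The TH cluster 12 had 10.5% in WT and 22.1% in null, and the Chodl cluster 21 had 6.77% and 18.5%. Nearly all null cortex cells of cluster 21 came from replicate 2, so its higher share rests on that library. Replicate 2 gave 703 null cortex SST cells and replicate 1 gave 106. In hippocampus the TH and Chodl clusters held 7.22% and 9.77%, and 1.61% and 2.31%. In hippocampus SST cluster 10 held 34.6% of WT and 5.27% of null cells, and cluster 5 held 26.5% and 41.5%. Hippocampus WT replicate 2 supplied 56.0% of all cluster 10 cells and most of its WT hippocampus cells. The contrast in cluster 10 thus rests largely on 1 library. The part of these shares in the Neto1 and Neto2 values was not tested.

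**Figure D4:**
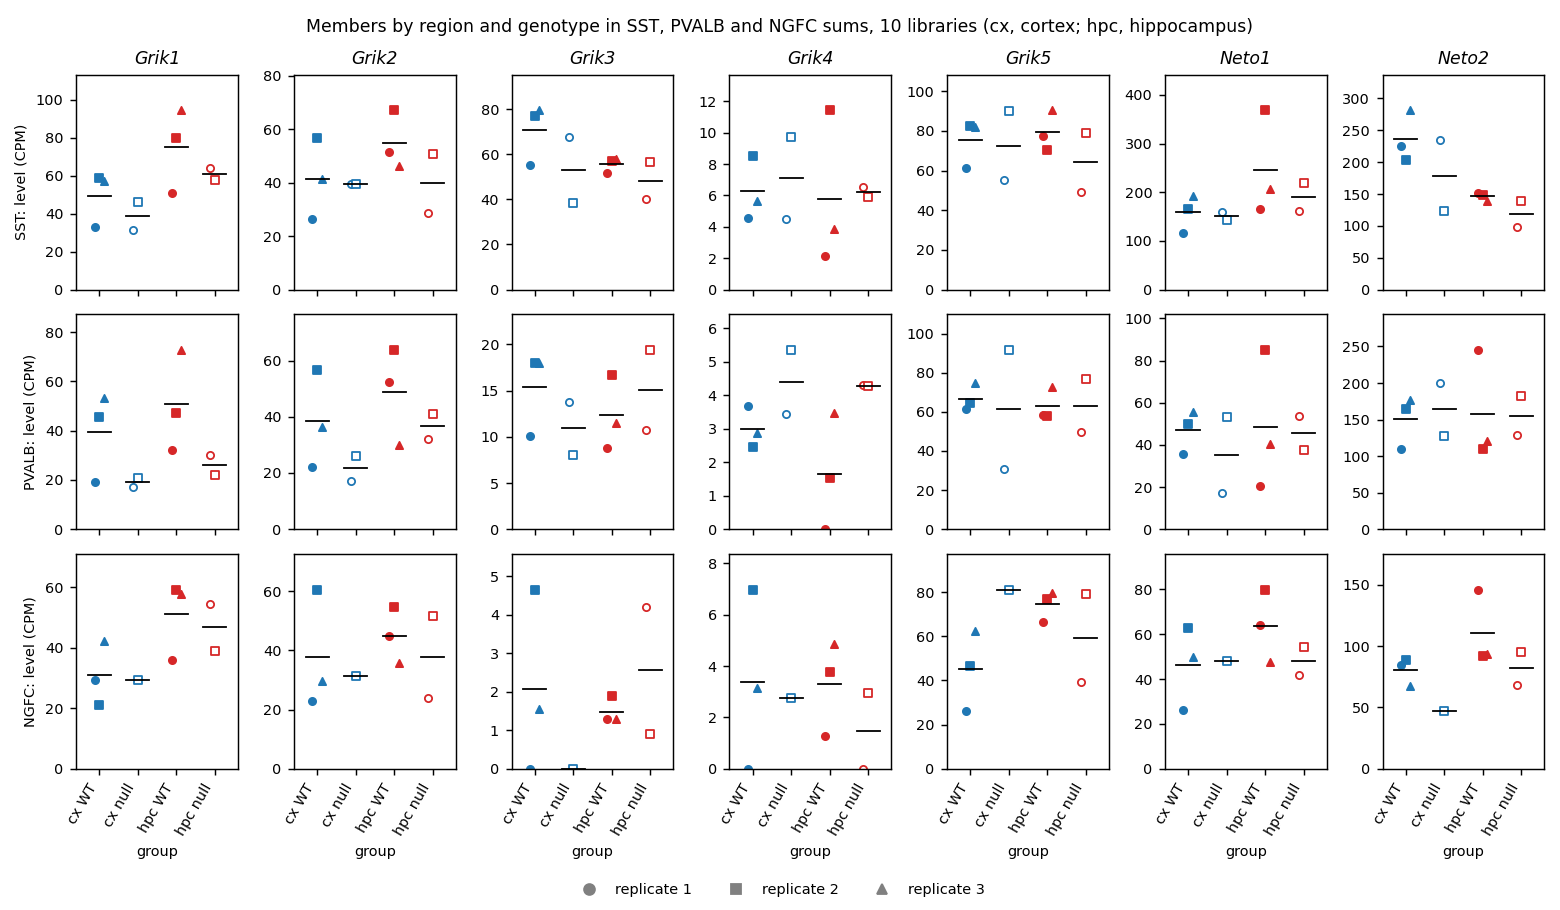
Level of each member (CPM, linear axes that differ between panels) in SST, PVALB and NGFC sums by region and genotype, each point 1 library, filled for WT and open for null, the shape giving the replicate and the line the mean. Groups overlap in most panels, and Grik1 in PVALB is at 21.9 and 30.1 CPM in null hippocampus, under its 3 WT values of 32.1 to 72.7 CPM.

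In precursors, values by genotype are given without a test. Neto1 was 22.2, 20.7 and 26.2 CPM in WT cortex and 17.6 CPM in the 1 null cortex library with at least 10 precursors, and 24.1, 30.5 and 31.8 CPM in WT and 15.9 and 15.4 CPM in null hippocampus. The makeup of the class moved too, with cluster 7, where Neto1 was 13.6 CPM in WT, holding 46.1% of WT and 69.4% of null precursors in cortex and 29.2% and 70.5% in hippocampus. Hippocampus WT replicate 2 gave 966 of the 2164 WT hippocampus precursors, nearly all in clusters 14, 27 and 28. That library thus lowers the WT share of cluster 7 in hippocampus. The part of cluster 7 in these values was not tested. Neto2 was 44.4, 56.3 and 55.1 CPM in WT and 25.5 CPM in null cortex, and 43.7, 24.2 and 25.1 CPM in WT and 21.1 and 21.6 CPM in null hippocampus. For the other members the 3 null libraries, cortex first, had 5.28, 5.28 and 3.595 CPM of Grik1, 27.3, 10.6 and 31.3 of Grik2, 33.4, 5.28 and 19.5 of Grik3, 12.3, 5.28 and 10.3 of Grik4, and 80.0, 47.6 and 47.8 of Grik5. With the regions pooled, null and WT ranges overlapped for 6 of the 7 members and not for Neto1. Within each region Neto2 did not overlap either. Both hippocampus null values of Grik5 also lay under its lowest WT value in either region, 50.0 CPM. How many of all genes separate in this way was not counted.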

How the data were processed

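The deposited files hold UMI counts per gene and cell, which the authors made with Cell Ranger 2.1.1 on mm10 with gene ends extended by 4 kb; nothing was scaled. Barcode suffixes were matched to replicates by the cell numbers the study states. Of 26987 cells (169924587 UMIs), the 26201 that had between 200 and 6000 genes and a mitochondrial share below 30% entered the clustering. Cells of the same region and genotype formed a single set that held all its libraries. These sets were integrated and clustered in Seurat 5.3.0 (2000 variable genes less the members among them, 25 dimensions, resolution 1.0). Libraries within a set were not integrated with each other, so differences of depth or kit between them were not corrected. Clusters were named from marker lists, and UMIs were summed per library and class, sums of under 10 cells left out. The order of the naming rule and the Oxt rule were set after seeing the clusters.

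Sums were tested in edgeR 4.0.16 (TMM, filterByExpr, quasi-likelihood, two-sided, Benjamini-Hochberg over all genes tested) under R 4.3.3, with library as a term in class comparisons, no term for region and a group-means model for genotype. Intervals of changes use t quantiles of the fit. DESeq2 1.42.0 was the other tool. A call needs both a change of 0.1 or more in natural-log units and an adjusted p below 0.01. Alternatives were other thresholds, scalings, filters on counts and cells, cluster resolutions (0.6 and 1.4), members kept among the clustering genes, Scrublet-marked cells removed (249, 0.95%), mitochondrial genes left out, each library left out, regions or chemistry alone, no library term, SST without TH cells, and a replicate block. Over genes, SST libraries of the same replicate number correlated across regions (r 0.688, 0.622 and 0.395), PVALB (0.558, 0.585 and 0.337) and NGFC (0.582, 0.514 and 0.239) likewise, so numbers were taken as pairs for the block. Genotype changes were also given within replicates 1 and 2, which share chemistry.

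Members and lists were chosen with earlier results of these data known. Named genes are every member, Grin1, up to 3 called genes of each list with the largest change per comparison, and up to 3 genes most correlated with each member called in an interneuron class comparison, among genes with a mean of at least 20 CPM. Shares carry Wilson and pooled levels Poisson 95% intervals, for counting error only. scanpy 1.11.5, scipy 1.17.1, numpy 2.4.6 and pandas 2.3.3 were used. Promoters came from RefSeq GRCm38.p6 and coordinates from GENCODE vM21. Classes other than SST, PVALB, NGFC, OPC and oligodendrocyte were described by level and not tested.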

Additional observations from a re-analysis of the deposited data

How the results depend on the processing

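Of the counts of members called under all alternatives, 298 were within 1.5 times the count reported, 3 were higher and 1 was lower. Without the filter on low counts, which adds genes to the test, 5 members were called for PVALB minus SST (3 as reported, with Grik4 and Neto2 added) and 2 for NGFC minus PVALB (1 as reported, with Neto2 added). In cortex libraries alone 2 members were called for NGFC minus PVALB, and the cause was not tested. With replicate 2 of both WT groups left out together, an alternative chosen after seeing the data that leaves fewer libraries, 2 members were called for NGFC minus SST (4 as reported). Leaving out each library in turn gave 2 to 3 members for PVALB minus SST, 3 to 4 for NGFC minus SST, 1 to 1 for NGFC minus PVALB, 5 to 6 for OPC minus oligodendrocyte and 0 to 0 in the region and genotype comparisons. With the replicate block, 0 members were called in every region and genotype comparison, as without it (edgeR; DESeq2 without the block also 0; at an unadjusted p under 0.05 and without the block, Neto2 in the SST region comparison and Grik1 in both PVALB genotype comparisons).

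Of the log2 changes of called members, 278 kept their direction and call, 23 lost the call and 0 reversed. The changes of Grik3 in the 3 interneuron comparisons stayed within -2.34 to -1.95, -5.64 to -5.04 and -3.45 to -2.88, and those of Neto1 within -2.29 to -1.76 (PVALB) and -1.97 to -1.77 (NGFC), called in all alternatives run. Of the other calls, Grik1 for PVALB minus SST was lost in 14 of 24 alternatives, Grik1 for NGFC minus SST in 4 of 23, Neto2 for NGFC minus SST in 2 of 23 and Grik2 for OPC minus oligodendrocyte in 3 of 19. All 35 shares of cells with a UMI moved when cells were thinned to 1000 UMIs. Leaving out the Pthlh clusters of PVALB, or cluster 14 of OPC (6 members called, as reported), was also chosen after seeing the data. Depth limits Grik4, which the filter kept out of the main edgeR fit of SST, PVALB and NGFC, and Grik3 in NGFC, which rests on 10 UMIs.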
